A study of Mus musculus with 2 samples.

Results

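The cells described here are endothelial cells of the mouse brain chosen by transcripts of Plvap or Igfbp3, which were found almost only in the brains that carried melanoma. A barcode of the droplet library was kept with at least 1000 UMIs (unique molecular identifiers, each standing for 1 captured transcript), at least 500 genes and at most 20% mitochondrial UMIs. It counted as endothelial with at least 5 UMIs over Cldn5, Flt1, Pecam1, Cdh5 and Esam, at least 0.15% of its UMIs over these 5 genes, and under 1% over the melanoma genes Pmel, Mlana, Tyrp1 and Dct. An endothelial cell was then selected on a sum of at least 2 UMIs over Plvap and Igfbp3. This gave 125 cells of the 27740 kept barcodes, of which 122 came from the metastasis library and 3 from the naive library. The other endothelial cells numbered 242 in metastasis and 360 in naive.

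The metastasis library was made from a pool of 3 brains of C57BL/6J mice aged 10 weeks that had received B16/F10-BrM cells, a brain-metastatic derivative of the B16 mouse melanoma line, by injection into the brain. The naive library was made from a pool of 3 brains of mice of the same strain and age without tumour cells. The labels name no transgene and no drug in either group. Both suspensions were enriched with beads against ACSA-2, a surface antigen of astrocytes, so endothelial cells are cells that came along with that enrichment, and about 10000 cells per group were loaded for 3-prime droplet sequencing. Each group is 1 library, so nothing measures the spread between animals: no test was possible between groups, cells are not replicates, and intervals cover counting error only. An update to the records swapped which of them is titled naive, and the current titles are used here. Pmel, a melanosome gene, had 174742 UMIs in the metastasis library and 4774 in the naive library.

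Plvap encodes the protein of the diaphragms that span fenestrae and caveolae of endothelial cells. It is present in immature brain vessels, in the leaky capillaries of the choroid plexus and in many tumour vessels, and is kept low in mature blood-brain barrier endothelium, which instead carries tight junctions and a large set of transporters under Wnt and beta-catenin signalling. Igfbp3 encodes a secreted binding protein of insulin-like growth factors. Sprouting vessels are led by tip cells, which express a known set of genes such as Esm1 and Apln and follow gradients of vascular endothelial growth factor.

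The values that chose the cells were as follows, and carry no test. The 122 cells of the metastasis library held 7088 Igfbp3 UMIs, which is 2778 CPM (UMIs of the gene per 1000000 UMIs of the set), and 1311 Plvap UMIs, which is 514 CPM. Both genes were detected in 101 cells, Igfbp3 without Plvap in 20 and Plvap without Igfbp3 in 1. Per cell, Igfbp3 ran from 0 through a median of 2564 to 17733 CPM and Plvap from 0 through a median of 542 to 3175 CPM. Just inside the threshold, 1 metastasis cell had 2 UMIs over the pair and 5 had 3. Just outside it, 6 cells had 1 UMI and 236 had none, while 105 cells had more than 10. Few cells therefore lay near the threshold. In the naive library 356 endothelial cells had none, 4 had 1, and the 3 chosen cells had 2, 3 and 5 UMIs, all of them Igfbp3. The 3 cells had no Plvap, Esm1 or Apln UMI, and 31, 15 and 49 UMIs of Cldn5, and in 2 of them choroid plexus markers exceeded 1% of UMIs. No profile of chosen cells in naive brain is given.

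**Figure D1:**
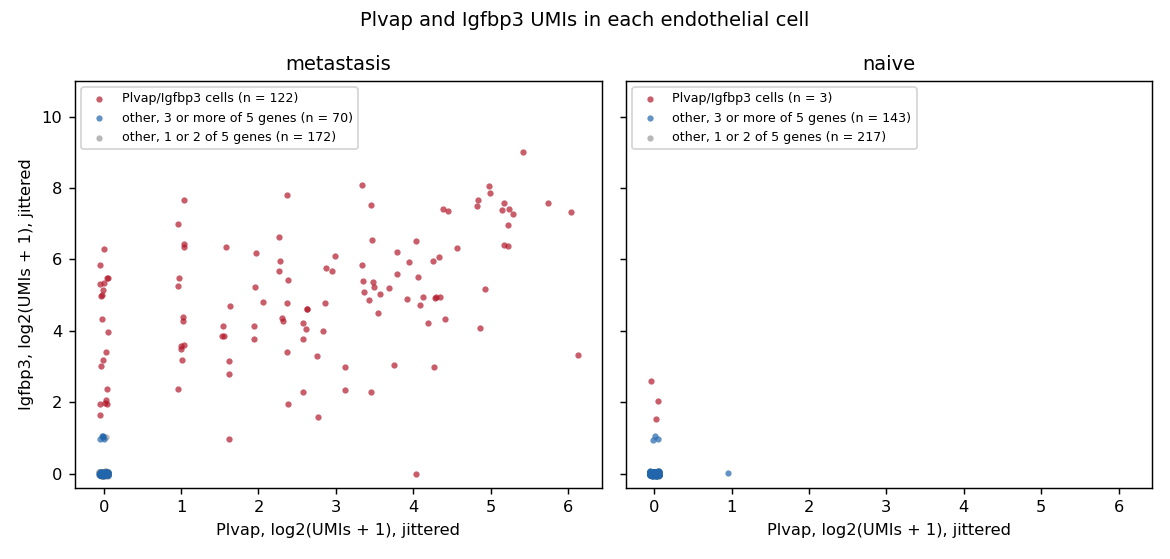
Plvap and Igfbp3 UMIs of each endothelial cell, both as log2(UMIs + 1) with jitter, in metastasis (left) and naive (right). Red points are the 122 and 3 chosen cells, blue points other endothelial cells with at least 3 of the 5 endothelial genes, and grey points other cells with fewer. Chosen cells of metastasis spread over both axes, and those of naive lie on the Igfbp3 axis at 2 to 5 UMIs.

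The chosen cells were 33.5% of endothelial cells in metastasis (122 of 364, 95% exact Clopper-Pearson interval 28.7 to 38.6%) and 0.826% in naive (3 of 363, 0.171 to 2.40%). Cells with more UMIs pass a fixed threshold more easily, and depth differed. The 122 cells had a median of 15079 UMIs (lowest 1072, highest 90521), and the other endothelial cells a median of 2138.5 UMIs in metastasis and 2422 in naive. With every cell thinned to 1000 UMIs, Igfbp3 was detected in 82.8% of the 122 cells (74.9 to 89.0%) and Plvap in 37.7% (29.1 to 46.9%), against 99.2% and 83.6% without thinning. Oligodendrocyte cells of the same library (more than 2% of UMIs over 6 myelin genes), which should lack both genes, gave 1.02% and 0.260% after thinning and 2.77% and 0.745% before, at a median depth of 2812 UMIs. The selection sets the shares in the chosen cells, so they are a description. The oligodendrocyte shares show how often a UMI of these genes was found in cells of another type. Whether free RNA, doublets or the cells themselves gave those UMIs was not tested.

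The label of an endothelial cell was checked with genes that the selection did not use. Ramp2, a co-receptor for adrenomedullin in endothelium, was detected in 121 of the 122 cells, Emcn, a sialomucin of capillaries and veins, in 120, Egfl7, a secreted endothelial protein, in 119, and Cd34, a surface glycoprotein of endothelium and blood progenitors, in 118. These genes are from a list of 18 pan-endothelial markers, not all of which were as frequent. Slco1a4, also on it, was detected in 19 of the 122 cells. All counts here are without thinning, and after thinning Emcn was detected in 72.1% of the chosen cells. Of the genes of the selection, Pecam1, the adhesion molecule of endothelial junctions, was detected in 118 and Cdh5, the endothelial cadherin, in 119. At least 3 of the 5 were found in 121 cells and all 5 in 110, which the selection itself favours. The other endothelial cells were of mixed kind: 172 of 242 in metastasis and 217 of 360 in naive had at most 2 of the 5 genes, mostly Cldn5 alone, and in 158 and 208 of these the markers of olfactory ensheathing cells exceeded 1% of UMIs. A limited comparison set was therefore chosen after seeing the data, the other endothelial cells with at least 3 of the 5 genes, called the 3-gene set here. It held 70 cells with 290321 UMIs in metastasis and 143 cells with 633978 UMIs in naive, at medians of 3213.5 and 3047 UMIs per cell. Of the chosen cells and the 3-gene set together, the chosen cells were 63.5% in metastasis (122 of 192) and 2.05% in naive (3 of 146).

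Markers of other cell types were lower in the chosen cells than in the metastasis 3-gene set in each of the 14 lists examined, as a sum over the list. Single markers went the other way: 1 of 7 measured astrocyte, 1 of 9 ependymal and 1 of 6 fibroblast markers were at least 2-fold higher in the chosen cells. The chosen cells were also deeper (median 15079 against 3213.5 UMIs), and the part of depth in these sums was not tested. Choroid plexus markers summed to 3888 CPM in the chosen cells and 35468 CPM in the 3-gene set, and exceeded 1% of UMIs in 11 of 122 and 25 of 70 cells. Melanoma markers summed to 323 and 1378 CPM, mural markers to 1669 and 2948 CPM, microglial markers to 206 and 1819 CPM and erythrocyte markers to 423 and 9593 CPM. The melanoma list also summed to 1637 CPM in the naive 3-gene set, so its sum is not a measure of tumour RNA alone. Lymphatic markers summed to 87.0 and 107 CPM, with Ccl21a, Mmrn1 and Reln at 0 in the chosen cells. The 18 pan-endothelial markers, which include the 5 genes of the selection, summed to 12513 and 24290.4 CPM, but 3 were at least 2-fold higher in the chosen cells, 7 lower and the median log2 ratio was 0.00, with Cldn5 and Slco1a4 among the lower genes. Against all 242 other cells 10 were higher and 3 lower, with a median of 1.13. Ependymal markers summed to 1877 and 3345 CPM, oligodendrocyte markers to 715 and 3128 CPM, astrocyte markers to 664 and 1574 CPM, and ensheathing markers to 508 and 2187 CPM. Fibroblast markers summed to 230.5 CPM in the chosen cells and 3176 CPM in the 3-gene set, macrophage markers to 161 and 985 CPM, neuronal markers to 23.1 and 162 CPM, and T and NK cell markers to 7.45 and 10.3 CPM, with Cd3e, Cd3d and Cd4 at 0 in the chosen cells. The fibroblast sum of the metastasis 3-gene set was spread over its cells, with a median of 2636 CPM per cell and 6 of 70 over 1%. In the naive 3-gene set it was 2883 CPM. How much of each list came from the endothelial cells themselves was not tested, so lower sums are not a measure of foreign RNA alone. The part of transcripts of other cell types in single gene differences was not tested.

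Genes were compared as summed UMIs of the chosen cells over those of other endothelial cells of the metastasis library, with a difference called at 2-fold, a rule of size and not a test. Against all 242 other cells, 10582 genes had at least 20 UMIs, of which 1895 (17.9%) were higher and 2534 (23.9%) lower in the chosen cells. Against the 70 cells of the 3-gene set, 9741 genes were compared, and 1650 (16.9%) were higher and 1920 (19.7%) lower. These shares are the background for the counts that follow. Values are given against the 3-gene set of the metastasis library unless all 242 cells are named, and a gene with no UMI in a set is given a bound from a floor of 3 UMIs over that set.

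Genes of tip cells and sprouting were higher as a group. Of 18 listed genes, all measured, 15 were at least 2-fold higher and none lower, with a median log2 ratio of 2.97, against -0.03 over all genes. Against all 242 other cells the count was 15 higher and 1 lower, with the same median of 2.97. With cells chosen by Plvap alone the median against the 3-gene set was 0.60, and with the pair counted after thinning 0.61. Esm1, a secreted proteoglycan of tip cells, had 198 CPM in the chosen cells and no UMI in either 3-gene set, and was at least 19.2-fold higher. It was detected in 75 of 122 cells, with a median of 137 CPM and a highest value of 3541 CPM. Apln, the ligand of the apelin receptor, had 376 CPM in the chosen cells, 41.3 CPM in the metastasis 3-gene set and 52.1 CPM in the naive 3-gene set (log2 ratio 3.19 within metastasis, interval 2.38 to 4.14). Kcne3, a potassium channel subunit known from tip cells, had 332 CPM in the chosen cells against 6.89 CPM from 2 UMIs (log2 ratio 5.59, 3.73 to 8.64) and no UMI in the naive set. The summed levels of the chosen cells stood above both other sets in all 3 genes, but for Apln the direction within metastasis turned when cells were chosen by 2 UMIs of Plvap alone (log2 ratio -0.51) or by the pair after thinning (-0.11), which both move cells with Igfbp3 into the comparison set.

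Other members of the list differed less. Angpt2, the antagonist of the Tie2 receptor, had 117 CPM in the chosen cells, 31.0 CPM in the metastasis 3-gene set and 18.9 CPM in the naive 3-gene set. Dll4, the Notch ligand that restrains neighbouring cells from becoming tip cells, had 120.3 CPM in the chosen cells against 37.9 CPM and 42.6 CPM. The 3 listed genes short of 2-fold were Nrp1, a co-receptor of vascular endothelial growth factor, at a log2 ratio of 0.91, Pdgfb, which recruits pericytes, at 0.53, and Pgf, a growth factor of the same family, at 0.19. After thinning, Esm1 was detected in 19.7% of the chosen cells (61.5% before) and in 0 of 70 cells of the 3-gene set. A count of 0 there allows a share of up to 4.29% by a floor of 3 cells and up to 5.13% by the exact interval. Apln was detected in 32.0% of the chosen cells (80.3% before), in 2.86% of the 3-gene set (7.14% before) and in 4.10% of oligodendrocyte cells (13.04% before), so its share in the 3-gene set was not above that of a cell type outside the vessels.

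Receptors and signalling genes of angiogenesis were split. Of 21 measured genes, which include Flt1 and Cdh5 of the selection, 5 were higher and 3 lower, with a median of 0.16. Against all 242 cells the count was 12 higher and 1 lower and the median 1.29. Aplnr, the apelin receptor, had 226 CPM in the chosen cells against 27.6 CPM (log2 ratio 3.03), Plxnd1, a semaphorin receptor, 392 CPM against 79.2 CPM (2.31), and Kdr, the main receptor of vascular endothelial growth factor, 1194 CPM against 579 CPM (1.05). Ptprb, the phosphatase that limits Tie2 signalling, was lower, at 223 CPM against 1164 CPM (log2 ratio -2.38), and Flt1, a decoy receptor of the same growth factor, was at 1189 CPM against 3097 CPM (-1.38).

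Blood-brain barrier transporters were lower almost throughout. Of 25 listed genes 24 were measured, 23 were at least 2-fold lower and none higher, with a median log2 ratio of -2.63. Against all 242 cells, most of which express few of these genes, 14 were lower and the median was -1.51. Slco1a4, an organic anion transporter of brain endothelium, had 26.7 CPM in the chosen cells, 1450.1 CPM in the metastasis 3-gene set and 1424 CPM in the naive set, a log2 ratio of -5.77 within metastasis (-6.16 to -5.39). It was detected in 19 of 122 chosen cells, and after thinning in 1.64% of them (15.6% before), against 42 of the 70 cells of the metastasis 3-gene set (85.7% before), 71.3% of the naive 3-gene set (93.0% before) and 0.0519% of oligodendrocyte cells. Spock2, a proteoglycan listed with these genes, had 12.2 CPM in the chosen cells against 1505 CPM (log2 ratio -6.95), and Slc6a6, the taurine transporter, 30.6 CPM against 1526 CPM (-5.64). Barcodes with 10 to 100 UMIs, which hold free RNA, had 15.6 CPM of Spock2, 89.5 CPM of Slc6a6 and 11.7 CPM of Slco1a4, so the first 2 genes were no higher in the chosen cells than in free RNA.

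The best known barrier genes of the list followed the same direction with smaller ratios. Slc2a1, the glucose transporter, had 134 CPM in the chosen cells against 882 CPM in the metastasis 3-gene set (log2 ratio -2.71). Mfsd2a, the lipid transporter that restrains transcytosis, had 27.8 CPM against 176 CPM (-2.66). The level in the chosen cells leans on 1 cell, which held 37 of the 53 Mfsd2a UMIs of the 102 chosen cells with Plvap. The 20 chosen cells without Plvap held 18. Abcb1a, the drug efflux pump P-glycoprotein, had 53.3 CPM against 1116 CPM (-4.39), while Abcg2, another efflux pump, had 334 CPM against 716 CPM (-1.10). Slco2b1 was the 1 measured transporter that did not reach 2-fold, at -0.71.

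Wnt targets and transcription factors of the barrier showed 12 of 20 measured genes lower and none higher (median -1.83). Lef1, a transcription factor of the Wnt pathway, had 54.1 CPM in the chosen cells against 496 CPM (log2 ratio -3.20), Axin2, a feedback target of the pathway, 4.31 CPM against 68.9 CPM (-4.00), Apcdd1, a Wnt inhibitor that is itself a target, 16.5 CPM against 348 CPM (-4.40), and Foxq1, a forkhead factor of brain endothelium, 29.0 CPM against 427 CPM (-3.88). The receptor Fzd4 and its co-activator Tspan12 were not among the lower genes, with log2 ratios of 0.67 and 0.50. Of 13 measured junction genes 5 were lower and none higher (median -0.34). Cldn5, the main claudin of the barrier and a gene of the selection, had 694 CPM in the chosen cells against 5825 CPM (log2 ratio -3.07). Ocln, or occludin, had 21.2 CPM against 183 CPM (-3.11), while Esam and Pecam1, also genes of the selection, stood at 0.19 and 0.03.

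**Figure D2:**
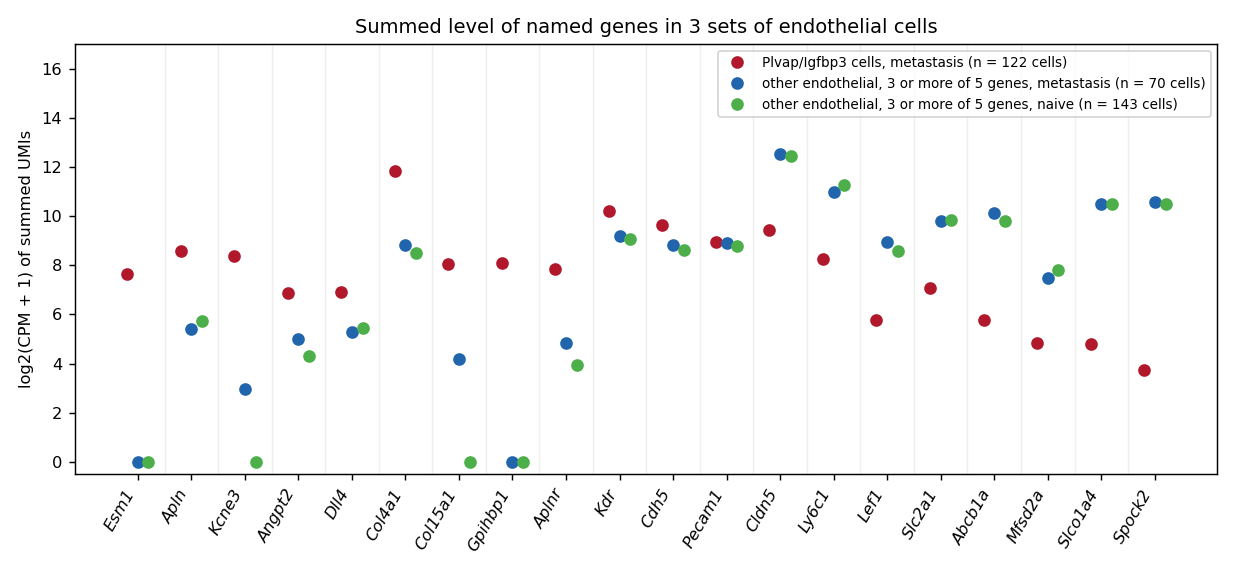
Level of 20 genes as log2(CPM + 1) of summed UMIs in the chosen cells of metastasis (red), the metastasis 3-gene set (blue) and the naive 3-gene set (green). Tip cell genes at the left are highest in red. Pecam1, a gene of the selection, is alike in the 3 sets at 489, 479 and 445 CPM. Barrier genes at the right are lowest in red, with the blue and green points close together.

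Promoter sequences are shown for 3 genes that mark these differences: Igfbp3 of the selection, Esm1 of the tip cell list and Mfsd2a of the barrier list. Igfbp3 lies at chr11:7206086-7213923 on the minus strand, Esm1 at chr13:113209659-113218098 on the plus strand and Mfsd2a at chr4:122946850-122961188 on the minus strand of GRCm38 (GENCODE M21). Plvap lies at chr8:71497765-71511752 on the minus strand. The stretches run from 250 bases before to 50 bases after the RefSeq start (GRCm38.p6), at chr11:7213874-7214173, chr13:113209409-113209708 and chr4:122961139-122961438, and are written 5′ to 3′ on the strand of the gene. Capitals mark matches, on either strand, to CTTTGA (TCF/LEF factors of the Wnt pathway), to ACGTG or GCGTG (the core of hypoxia response elements) and to CCGGAA (ETS factors), with no overlap between matches.
Igfbp3: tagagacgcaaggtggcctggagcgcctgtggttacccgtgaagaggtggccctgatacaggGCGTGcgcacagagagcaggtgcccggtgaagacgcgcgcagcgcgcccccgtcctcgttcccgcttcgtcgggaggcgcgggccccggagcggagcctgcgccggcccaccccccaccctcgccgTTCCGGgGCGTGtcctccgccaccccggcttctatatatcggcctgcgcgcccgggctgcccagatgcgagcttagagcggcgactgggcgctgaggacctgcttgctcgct
Esm1: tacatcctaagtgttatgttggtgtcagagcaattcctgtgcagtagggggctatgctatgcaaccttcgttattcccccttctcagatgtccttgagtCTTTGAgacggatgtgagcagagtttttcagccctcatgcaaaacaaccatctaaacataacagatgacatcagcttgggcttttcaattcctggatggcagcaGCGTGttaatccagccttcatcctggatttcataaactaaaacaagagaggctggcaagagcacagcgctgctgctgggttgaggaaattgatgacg
Mfsd2a: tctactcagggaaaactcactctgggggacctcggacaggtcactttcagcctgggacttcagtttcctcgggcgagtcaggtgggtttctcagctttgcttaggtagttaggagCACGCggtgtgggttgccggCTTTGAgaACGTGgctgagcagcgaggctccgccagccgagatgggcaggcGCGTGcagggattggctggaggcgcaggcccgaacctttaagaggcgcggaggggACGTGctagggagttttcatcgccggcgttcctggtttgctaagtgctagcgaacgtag
Igfbp3 held 2 hypoxia-type matches and 1 ETS match, Esm1 held 1 TCF/LEF and 1 hypoxia-type match, and Mfsd2a held 1 TCF/LEF match and 4 hypoxia-type matches. Of 32544 different promoter stretches of this length, 16.02% held the TCF/LEF letters, 44.0% a hypoxia-type core and 14.98% the ETS letters. The same stretches of Apln and Slco1a4 were also searched and held none of these matches, so the tip cell and barrier genes did not share them. The shares count stretches with at least 1 match, and no share was computed for 2 or 4 matches. The matches are a description of the letters only.

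Genes known from fenestrated and peripheral endothelium were higher, with 10 of 15 measured genes at 2-fold, 2 lower and a median of 2.36; Plvap, which chose the cells, is 1 of the 10. Gpihbp1, which anchors lipoprotein lipase on capillaries outside the brain, had 270.1 CPM in 97 of 122 chosen cells and no UMI in either 3-gene set, at least 26.1-fold higher than in the metastasis set. Exoc3l2 had 54.5 CPM against 3.44 CPM from 1 UMI (log2 ratio 3.98, 1.48 to 9.30), and Meox1, a homeobox factor, 155 CPM against 13.8 CPM (3.49). Igf1r, the receptor of insulin-like growth factor 1, which is on this list, was lower, at 54.1 CPM against 875 CPM (log2 ratio -4.02).

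The insulin-like growth factor binding proteins had no common direction. Besides Igfbp3, Igfbp7, a matrix-bound member of tumour vessels, had 6149 CPM in the chosen cells against 1509 CPM (log2 ratio 2.03), and Igfbp4 had 414 CPM against 44.8 CPM (3.21). Igfbp7 was detected in all 122 cells, from 861 to 15736 CPM with a median of 6197 CPM. Igfbp2 was lower, at 22.3 CPM against 217 CPM (-3.28), and Igfbp5 lower, at 31.7 CPM against 79.2 CPM (-1.32). The full list, which also holds receptors and Esm1, had 4 of 9 measured genes higher (Igfbp3, Igfbp4, Igfbp7 and Esm1) and 3 lower (Igfbp2, Igfbp5 and the receptor Igf1r). Igfbp3, which chose the cells, is 1 of the 4.

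Matrix genes were higher. Of 20 measured genes of the vascular basement membrane, 13 were higher and 2 lower, with a median of 1.65, which was 0.59 with cells chosen by Plvap alone and 0.49 with the pair counted after thinning. Col4a1, a chain of type IV collagen, had 3611 CPM in the chosen cells, 451 CPM in the metastasis 3-gene set and 364 CPM in the naive set (log2 ratio 3.00 within metastasis, 2.75 to 3.26), and Col4a2, its partner chain, 1547 CPM against 320.3 CPM and 251 CPM. Col15a1 had 263 CPM in the chosen cells against 17.2 CPM and no UMI, and Lamb1, a laminin chain, 279 CPM against 13.8 CPM and 30.0 CPM. Lamb2, another laminin chain, was lower (log2 ratio -2.03), and Fn1, or fibronectin, had 403 CPM against 668 CPM (-0.73). Of 21 genes of matrix remodelling 11 were higher and 2 lower, among them Serpinh1, the collagen chaperone, at 1335 CPM against 296 CPM (2.17) and Adamts9, a matrix protease, at 137 CPM against 13.8 CPM (3.31). Timp1, an inhibitor of matrix proteases, had 68.6 CPM against 3.44 CPM from 1 UMI (4.32, 1.82 to 9.63).

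Cell cycle genes were higher together: of 25 listed, 24 were measured and all 24 passed 2-fold upwards (median 2.77), with a median of 3.32 against all 242 cells. Against the 3-gene set the median was 0.78 with cells chosen by Plvap alone and 0.29 with the pair counted after thinning. Mki67, a marker of cycling cells, had 272 CPM in the chosen cells, 17.2 CPM in the metastasis 3-gene set and 1.58 CPM in the naive set. Top2a, a topoisomerase of dividing cells, had 432 CPM against 17.2 CPM and 1.58 CPM, and Ube2c, of the anaphase machinery, 525 CPM against 20.7 CPM and 1.58 CPM. Free RNA of the metastasis library held 38.9 CPM of Mki67, 121 CPM of Top2a and 175 CPM of Ube2c, below the chosen cells and above the 3-gene sets. The 6 genes Mki67, Top2a, Cdk1, Cenpf, Birc5 and Ube2c together exceeded 1000 CPM in 79 of 122 chosen cells, 4 of 70 cells of the metastasis 3-gene set and 0 of 143 cells of the naive set, with 40 chosen cells between 500 and 2000 CPM. After thinning, Mki67 was detected in 24.6% of the chosen cells (69.7% before), 1.43% of the 3-gene set (4.29% before) and 0.606% of oligodendrocyte cells (1.90% before).

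**Figure D3:**
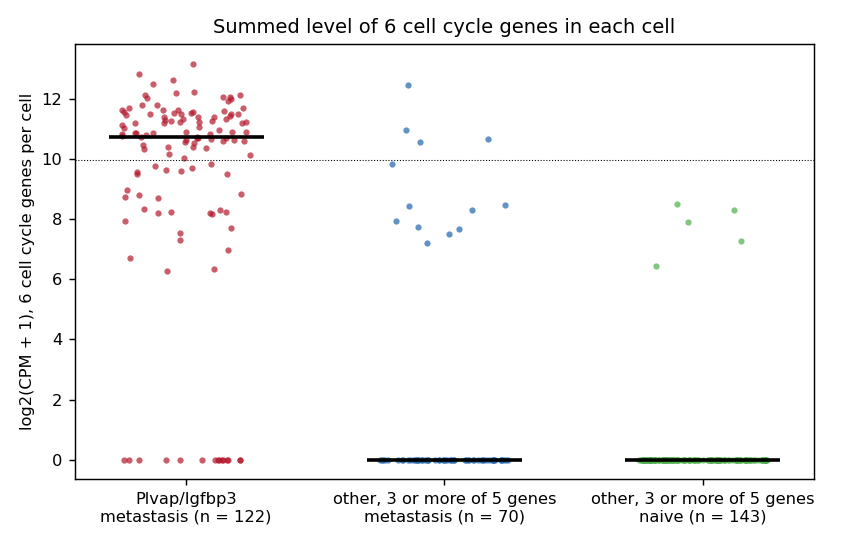
Summed level of 6 cell cycle genes in each cell as log2(CPM + 1), for the 122 chosen cells and the 70 cells of the 3-gene set in metastasis and the 143 cells of the naive 3-gene set. Thick lines are medians and the dotted line is 1000 CPM, which 79, 4 and 0 cells exceed. Cells differ in depth between sets.

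Genes of the cytoskeleton and cell activation were higher in 15 of 22 and lower in 2 (median 1.60), such as Anxa1, an annexin, at 344 CPM against 24.1 CPM (log2 ratio 3.84) and S100a6, a calcium-binding protein, at 976 CPM against 124 CPM (2.98). Arterial genes were lower in 9 of 16 and higher in 3 (median -1.31), with Alpl, alkaline phosphatase, at 2.74 CPM against 114 CPM. Venous genes were lower in 7 of 14 and higher in 1 (median -1.17), with Vwf, von Willebrand factor, at 52.9 CPM in the chosen cells, 351 CPM in the metastasis 3-gene set and 82.0 CPM in the naive set. Interferon response genes were lower in 18 of 25 and higher in 1 (median -1.37). Ifit3 had 5.49 CPM in the chosen cells against 124 CPM and 37.9 CPM, while Bst2, or tetherin, was the 1 higher gene at 577 CPM against 282 CPM and 186 CPM, with 292 CPM in free RNA. Class I antigen presentation genes were lower in 4 of 15 and higher in none (median -0.72), beside 19.7% lower and 16.9% higher over all genes. Against the naive 3-gene set 1 of 15 was higher and 1 lower (median 0.09), so no direction is read for this list. Immediate early genes were lower in 6 of 16 and higher in 1 (median -0.50), with the shear-responsive factors Klf2 and Klf4 at log2 ratios of -1.87 and -2.42.

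Some lists showed no common direction against the metastasis 3-gene set. Glycolysis and hypoxia genes were higher in 6 and lower in 5 of 22 (median 0.17), with Gapdh at a log2 ratio of 1.86 and Ldha, lactate dehydrogenase, at 1.25, but the hypoxia-induced genes Bnip3 and Ndrg1 at -3.77 and -2.64. Notch genes were higher in 4 and lower in 5 of 16, caveolar genes higher in 3 and lower in 3 of 13, leukocyte adhesion and inflammation genes higher in 5 and lower in 6 of 16, and class II genes lower in 1 of 4 measured. Genes of transforming growth factor beta were lower in 7 and higher in 2 of 16, where Bambi, a pseudoreceptor of that family, was at 4.18 and Tgfb2 and Ltbp4 at -3.00 and -3.03.

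**Figure D4:**
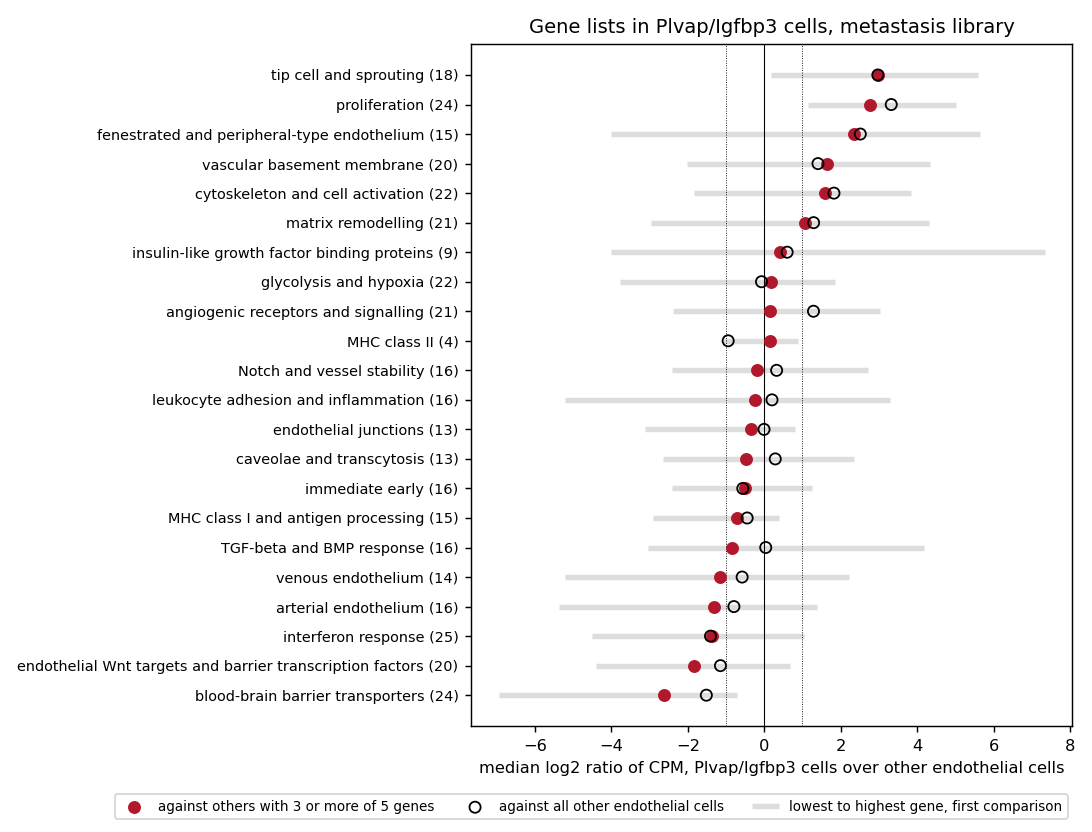
Median log2 ratio of each of 22 gene lists in the chosen cells of metastasis over the 3-gene set (filled) and over all 242 other endothelial cells (open), with the number of genes measured against the 3-gene set in parentheses. Grey bars run from the lowest to the highest gene against the 3-gene set, and dotted lines are 2-fold. The tip cell list is at 2.97 and the barrier transporter list at -2.63 in the filled points, and open points differ most from filled ones for the barrier and receptor lists.

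Of all genes with at least 50 UMIs, leaving out ribosomal, mitochondrial and unnamed genes, markers of other types and the genes of the selection, the 12 with the highest and lowest ratios were named, with 10 CPM added to both values. At the high end stood Gpihbp1, Fam167b, Pcdh17, Esm1, Kcne3, Ube2c, Cdk1, Top2a, Pclaf, Cenpf, Lamb1 and Cenpa. Fam167b had 365 CPM in the chosen cells from 932 UMIs against 3.44 CPM from 1 UMI (log2 ratio 6.73, 4.25 to 12.03), and Pcdh17, a protocadherin, 463 CPM against 10.3 CPM from 3 UMIs (log2 ratio 5.48, 3.93 to 7.76). The low end included Spock2, Slco1a4, Slc6a6, Sema3c, Slc22a8, Abcb1a, Ccl8, Ccdc141, Srarp, Igf1r and Apcdd1. Sema3c, a secreted semaphorin, had 3.53 CPM in the chosen cells, 382 CPM in the metastasis 3-gene set and 424 CPM in the naive set. Ccl8, a monocyte chemokine, had 1.18 CPM in the chosen cells, 179 CPM in the metastasis 3-gene set and no UMI in the naive set. Against all 242 cells the high end held Fam167b, Gpihbp1, Kcne3, Pclaf, Esm1, Ube2c, H1f5, Cdk1, Piezo2, Bambi, Exoc3l4 and Emp1. The low end there included Slc4a4, Ptprz1, Apod, Apoe, Ttyh1, Hes5, Ncam1, Fxyd1, Clca3a1, Mmd2 and Igfbp5, many of them glial genes.

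By the share of genes passing 2-fold, endothelial cells outside the selection differed less between libraries than from the chosen cells. The summed UMIs of the sets differ, so counting error differs between these comparisons, and its part in the shares was not tested. Between the metastasis and naive 3-gene sets, 7007 genes were compared, 280 (4.0%) were at least 2-fold higher and 290 (4.14%) lower in metastasis. Of the 25 barrier transporters, 1 was higher and none lower (median -0.05), and none of 20 Wnt and barrier factors passed 2-fold. Class I genes were higher in 6 of 15 and none lower (median 0.92), and venous genes higher in 6 of 9 (median 1.13). The leading genes were Ccl8, Ctss, Vwf, Ifit3, Pla2g4a and Rnase4 at the high end and Wfdc2, Rsph1, Tvp23b, Tmem72, Sulf1 and Emb at the low end. Markers of other types moved between these sets too, with all 7 measured microglial and all 5 measured macrophage markers higher in metastasis, 4 of 5 melanoma markers higher, and 5 of 10 ependymal and 3 of 10 choroid plexus markers lower. Their part in the differences was not tested. Between all 242 and all 360 other cells the leading genes were Ccl2, Cxcl10, Ccl8, Ctss, Ccn2 and Trem2, and Wfdc2, Baiap2, Tbx3, Sostdc1, Sulf1 and Zc3h7b. Set against the naive 3-gene set directly, the chosen cells of metastasis had 24 of 25 barrier transporters lower (median -2.75) and 14 of 18 tip cell genes higher (median 2.88). Basement membrane genes were higher in 13 of 20 (median 2.25). Some lists read differently against this set than against the metastasis 3-gene set. Leukocyte adhesion and inflammation genes were higher in 10 of 15 and lower in 2 (median 1.58), with 5 of the 15 at a bound. Venous genes were higher in 4 and lower in 3 of 13 (median -0.19). The comparisons share sets of cells and libraries, so they are given side by side only.

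Among the chosen cells, the genes did not all vary together. Over the 99 cells with at least 5000 UMIs, Pearson's r of log2(1 + UMIs per 10000) between Plvap and Igfbp3 was 0.11. All these cells come from 1 library, and the values carry no p. Of 260 genes of the lists and named genes, mostly those detected in at least 50% of these cells, those most like Plvap were Fam167b (r = 0.65), the lipid phosphatases Plpp3 (0.53) and Plpp1 (0.52), Anxa1 (0.52) and Emcn (0.50). Those least like it were Fn1 (-0.52), Pltp (-0.49), Mfsd2a (-0.45) and Slco1a4 (-0.44). Igfbp3 was most like Gpihbp1 (0.60), the gap junction gene Gja1 (0.52), Col4a2 (0.52) and Dll4 (0.49), and least like Itm2a (-0.38) and Pltp (-0.37). The correlation of Plvap and of Igfbp3 with the logarithm of depth was -0.10 and -0.03.

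**Figure D5:**
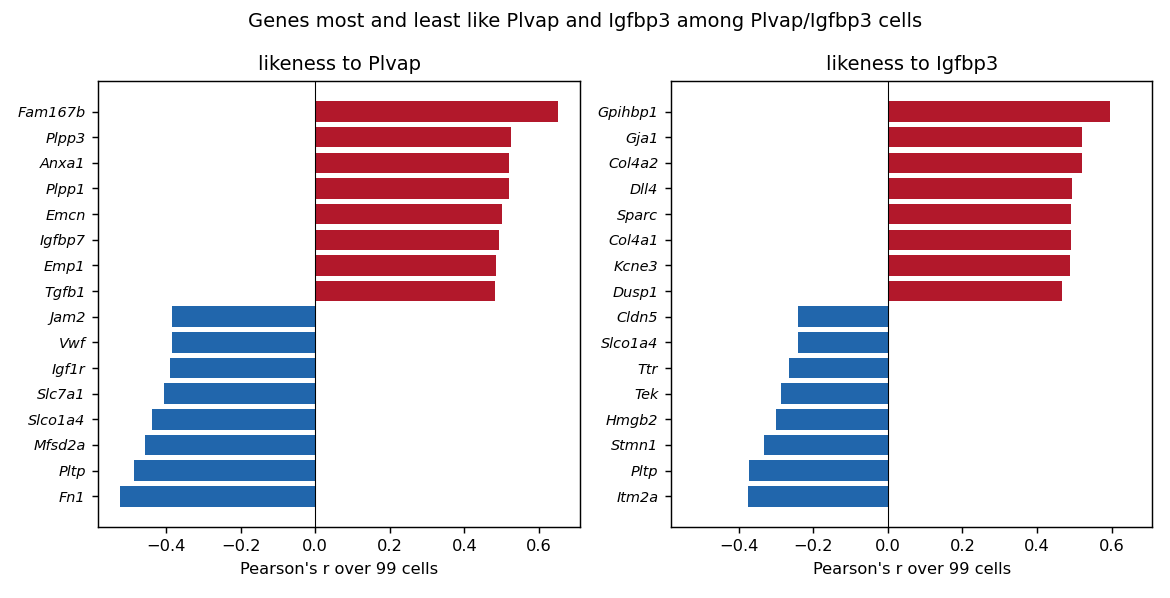
Genes with the 8 highest and 8 lowest Pearson correlations with Plvap (left) and with Igfbp3 (right) over the 99 chosen cells with at least 5000 UMIs. Bars are r without error. Fam167b leads for Plvap at 0.65 and Gpihbp1 for Igfbp3 at 0.60, and both lists of low genes include Slco1a4.

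Barrier genes differed in how many chosen cells held them. Of the 122 cells, Abcg2 was detected in 108, Slc2a1 in 87, Abcb1a in 56, Slco1a4 in 19 and Mfsd2a in 14. Slco1a4 reached 1516 CPM in 1 of them, near the summed level of the 3-gene set. Over the 99 deep cells it correlated with Mfsd2a (r = 0.63), Cldn5 (0.56) and, negatively, Col4a1 (-0.49). These values rest on few cells, since Slco1a4 was detected in 17 and Mfsd2a in 14 of the 99. The 20 cells without a Plvap UMI had 132 CPM of Slco1a4, 1813 CPM of Cldn5 and 396 CPM of Slc2a1, against 14.8, 569 and 105 CPM in the 102 cells with Plvap, a split by a gene of the selection and so a description. They also had 757 CPM of Apln and 291 CPM of Angpt2 against 334 and 97.2 CPM, but 93.2 CPM of Esm1 and 113 CPM of Aplnr against 210.1 and 238 CPM. The log2 ratio was 3.15 for Slco1a4 (2.43 to 3.88) and 1.18 for Apln (0.95 to 1.41), and -1.17 for Esm1 (-1.83 to -0.58). These 20 cells were chosen by Igfbp3 alone and were shallower, with a median of 7752 UMIs against 15568.5. They also had more of Ttr, a choroid plexus marker, at 5533 CPM against 3134 CPM. The part of depth and of these transcripts in the split was not tested.

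Tip cell genes also varied among themselves. Esm1 went with Cxcr4, a chemokine receptor of tip cells (r = 0.59), and Apln with Angpt2 (0.51), while Apln and its receptor Aplnr were near 0 at -0.12. Mki67 was at -0.14 with Esm1, -0.29 with Angpt2 and -0.18 with Igfbp3. The levels per cell of Esm1, Apln and Angpt2 ran from 0 to 3541, 2305 and 1442 CPM, with medians of 137, 221 and 39.4 CPM. These genes were therefore high in some of the 122 chosen cells and not detected in others. Depth ran from 1072 to 90521 UMIs over the 122 cells, and its part in the lack of detection was not tested.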

How the data were processed

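Single-cell RNA was measured in 1 library of pooled brains per group. The authors deposited raw UMI counts of every barcode, neither normalized nor filtered, made with STARsolo on GRCm38 per the submitters' processing notes; the version, annotation and settings are not given in the sources used here. GENCODE M21 holds 54349 of the 55401 gene identifiers in the same version and 55141 in any version. Total UMIs were 89193669 in metastasis and 69445557 in naive, and the 122 chosen cells of metastasis held 2551196. Of the kept barcodes, 53 had the same sequence in both libraries, none of them endothelial.

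UMIs were summed per gene over each set of cells and scaled to CPM. Intervals are at 95% and cover counting error only, conditional binomial for ratios and Clopper-Pearson for shares, both exact. Genes needed 20 UMIs over both sets. Free RNA is the CPM of barcodes with 10 to 100 UMIs. Of 513 listed symbols, 512 were in the files. The members, the 22 lists and the 15 marker lists were chosen with earlier results of these data known. Named genes are those of the selection, the largest ratios and defining members of each list, and the 12 highest and 12 lowest ratios (6 between libraries). A gene that the last rule names is not reported here. Doublets were scored with scrublet in scanpy and not removed. Its automatic threshold called 0 barcodes in metastasis and 855 (6.11%) in naive, so it did not work in metastasis, and removing the highest 6% of scores was tried too, a choice made after seeing the data; 3 of the 122 cells were in it. The calculation was tested on simulated counts. Python 3.11.15, numpy 2.4.6, scipy 1.17.1, pandas 2.3.3, scanpy 1.11.5 and matplotlib 3.10.9 were used. Alternatives covered the filters, the endothelial and pair thresholds, either gene alone, thinning, doublets, other markers, minimum counts, scaling and the comparison set.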

Additional observations from a re-analysis of the deposited data

How the results depend on the processing

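Against all 242 other cells, the median log2 ratio was 2.97 for tip cell genes, -1.51 for barrier transporters, 1.41 for the basement membrane and 3.32 for the cell cycle, and each kept its sign under every alternative run. The share of chosen cells in metastasis was 47.2% with at least 2000 UMIs, 44.6% with at least 10 endothelial UMIs and 0.3%, 24.5% with 2 UMIs of Plvap alone, 48.2% without barcodes over 1% of other markers, 23.1% with the pair counted after thinning, 63.5% against the 3-gene set and 84.6% with at least 5000 UMIs there. In naive it was 0 with Plvap alone, 0 with both genes required and 2.50% with at least 5000 UMIs. Genes higher numbered 700 with Plvap alone, 268 after thinning and 1204 with 10 CPM added, against 1895. Genes lower numbered 1564 after thinning, 1396 with at least 50 UMIs per gene and 1677 with 10 CPM added, against 2534. The tip cell median was 1.11 with Plvap alone, 0.83 after thinning and 2.26 with 10 CPM added. The barrier median was -2.63 against the 3-gene set and -2.55 with at least 5000 UMIs there. The basement membrane median was 0.76 after thinning. The cell cycle median was 1.24 with Plvap alone, 0.65 after thinning, 2.48 with 10 CPM added and 2.31 with at least 5000 UMIs there. Against the 3-gene set, the median ran over all alternatives from 0.60 to 3.12 for tip cell genes, -2.89 to -2.09 for barrier transporters, 0.49 to 1.91 for the basement membrane and 0.29 to 3.82 for the cell cycle. Apln against the 3-gene set (3.19) reversed to -0.51 with Plvap alone and -0.11 after thinning. Both settings move cells with Igfbp3 into the comparison set by construction. The cause of the other changes was not tested. With at least 5000 UMIs in both sets, 99 and 18 cells, Esm1 was at 3.28, Apln at 5.85, Col4a1 at 2.97 and Slco1a4 at -5.67. The limits to at least 3 of 5 genes, to 5000 UMIs, to the highest doublet scores and to both genes were chosen after seeing the data. No paired analysis was possible because each group is 1 library, and leaving out a library leaves no comparison between groups. Genes with few UMIs in the 70 cells are limited by depth.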
